A study of Mus musculus with 26 samples.

Results

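Acyl-CoA thioesterases, the products of the Acot genes, cut the thioester bond of an acyl-CoA and release a free fatty acid and coenzyme A. They act against the acyl-CoA synthetases, which load fatty acids onto coenzyme A before the fatty acids are oxidised or built into lipid. Brown adipose tissue (BAT) burns fatty acids in its mitochondria to make heat when the animal is cold, and a fatty acid enters that pathway only as an acyl-CoA. Here 10 Acot genes were followed in the counts of 26 BAT libraries: Acot1, Acot2, Acot3, Acot4, Acot5, Acot7, Acot8, Acot9, Acot11 and Acot13. They were found by symbol among the 50686 genes listed, and all 10 were among the 17286 genes tested. The mouse genes Acot6, Acot10 and Acot12 are not among these 10 and are given only where a result touches them.

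The mice were adult males of the C57BL/6J strain, and the tissue is given as supraclavicular brown fat. Mice labelled Afadin KO carry an Adiponectin-Cre transgene and a floxed Mllt4 gene, the older name of Afdn, which encodes the scaffold protein Afadin. Adiponectin is made by white and brown adipocytes alike, so the deletion is meant for all fat and not for brown fat alone. Mice labelled WT are control littermates. All 26 mice spent 2 weeks at thermoneutrality, which is 30 °C in the labels. The WT30 group (7 mice) and the KO30 group (7 mice) stayed there, and the WT5 group (5 mice) and the KO5 group (7 mice) were then moved to 5 °C for 6 h.

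Total counts per library ran from 12705969 to 25732258. Afdn itself did not separate the labels at 30 °C: it had 151 to 214 CPM (counts scaled to a library of equal size with TMM factors) in WT30 mice and 154 to 231 CPM in KO30 mice. At 5 °C it had 67.9 to 79.2 CPM in WT5 mice and 53.3 to 65.3 CPM in KO5 mice, without overlap. Between the labels its log2 difference was -0.01 at 30 °C (adjusted p = 0.992) and -0.33 at 5 °C (adjusted p = 0.116), both by edgeR's quasi-likelihood F-test, whose results are marked edgeR below. These are counts of the whole gene in bulk tissue, and they do not test the deletion in adipocytes. For the protein, the authors report a smaller rise of Afadin with cold in BAT of the knockout mice than in controls. The genotype is therefore used below only as a label. Ucp1, the uncoupling protein of brown fat, rose from a mean of 985 CPM in WT30 mice to 16005 CPM in WT5 mice. All 10 markers of brown adipocytes, Ucp1 among them, were detected in every group. In the cold, 4 of the 10 were called higher and 3 lower in mice labelled WT, and 4 and 3 in mice labelled Afadin KO (edgeR). Of all tested genes, 31.6% were called higher and 33.4% lower in mice labelled WT, and 33.7% and 34.9% in mice labelled Afadin KO.

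The 10 genes fall into 2 classes that share an activity but not a protein fold. The type I enzymes are built like α/β-hydrolases. Their genes stand in a single cluster on chromosome 12, all on the plus strand, in the order Acot2, Acot1, Acot4, Acot3, Acot5 and Acot6 over 123 kb of mm10. Acot2 (ENSMUSG00000021226.7, chr12:83987861-83993873) encodes the mitochondrial enzyme, and Acot1 (ENSMUSG00000072949.5, chr12:84009490-84018371) its cytosolic counterpart. Acot4 (ENSMUSG00000052392.4, chr12:84038379-84048601), Acot3 (ENSMUSG00000021228.14, chr12:84052144-84060402) and Acot5 (ENSMUSG00000042540.12, chr12:84069325-84076020) encode peroxisomal enzymes.

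The type II enzymes have the hot-dog fold, and their genes are scattered. Acot7 (ENSMUSG00000028937.14, chr4:152178134-152271855, plus strand) encodes a mainly cytosolic enzyme that is abundant in brain. Acot8 (ENSMUSG00000017307.15, chr2:164792765-164804882, minus strand) encodes a peroxisomal enzyme. Acot9 (ENSMUSG00000025287.15, chrX:155262443-155297654, plus strand) and Acot13 (ENSMUSG00000006717.6, chr13:24817948-24831540, minus strand) encode mitochondrial enzymes. Acot11 (ENSMUSG00000034853.16, chr4:106744555-106804998, minus strand) is also known as BFIT, for brown fat inducible thioesterase.

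The start regions of the 5 type I genes among the members are shown because genes of this cluster are known targets of PPARα. PPARα is a nuclear receptor whose sites are built from the hexamer AGGTCA. The regions were chosen with the rise of these genes in the cold known. That rise is no ground for a shared site, since Acot1, Acot3 and Acot5 entered the test only through their values in the cold. Each region runs from 100 bases before the RefSeq transcription start to 30 bases after it, on the plus strand of GRCm38.p6. Capitals mark AGGTCA or its reverse complement TGACCT.
Acot2, chr12:83987761-83987890: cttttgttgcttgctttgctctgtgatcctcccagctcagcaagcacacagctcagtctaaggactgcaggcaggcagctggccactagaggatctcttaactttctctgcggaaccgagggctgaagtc
Acot1, chr12:84009402-84009531: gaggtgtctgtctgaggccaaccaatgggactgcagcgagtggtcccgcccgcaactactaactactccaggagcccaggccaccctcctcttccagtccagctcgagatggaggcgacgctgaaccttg
Acot4, chr12:84038279-84038408: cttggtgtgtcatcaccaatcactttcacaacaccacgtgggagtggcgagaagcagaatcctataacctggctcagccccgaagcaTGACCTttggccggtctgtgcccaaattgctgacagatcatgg
Acot3, chr12:84052044-84052173: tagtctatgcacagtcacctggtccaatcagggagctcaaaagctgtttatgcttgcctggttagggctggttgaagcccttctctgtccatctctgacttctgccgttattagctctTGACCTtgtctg
Acot5, chr12:84069224-84069353: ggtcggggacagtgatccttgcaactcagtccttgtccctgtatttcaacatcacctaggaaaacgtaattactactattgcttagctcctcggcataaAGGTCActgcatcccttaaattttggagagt
Within these windows the hexamer was found in 3 of the 5 genes. In Acot4 the match begins 13 bases before the start, on the reverse strand. In Acot3 it begins at base 19 of the transcript, on the reverse strand, and in Acot5 at the base before the start, on the forward strand. In the longer RefSeq windows, from 250 bases before to 50 bases after the start, Acot5 held 2 matches. Acot4, Acot3 and Acot5 were also the only members with the hexamer in that longer window, 3 of the 9 members with a RefSeq window. Of all 32851 windows, 16.3% held it on either strand. A gene can have several windows, as Acot3 and Acot5 do, so shares of members and shares of windows are unlike measures. A direct repeat of 2 such hexamers with any base between them was in none of the 9 and in 0.0396% of all windows. The cyclic AMP response element TGACGTCA, searched on either strand as well, was in none of the 9 and in 1.79% of all windows. A match describes the letters only, and PPARα sites often lie outside windows of this length.

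The copies in the cluster are similar enough to share reads. Of all 100-base stretches (the read length) in the annotated transcripts of Acot2, 17.1% also occur in Acot1. For Acot1 the share found in any other gene was 12.4%, for Acot3 13.8%, for Acot5 7.79% and for Acot4 0.336%. Most of the share of Acot3 was not with other Acot genes, since 9.53% of its stretches occur in the protein-coding gene ENSMUSG00000113475. Gm49366, a protein-coding gene on the same strand, overlaps exons of Acot3 by 396 bases and of Acot4 by 33 bases. Among the type II genes, 0.705% of the stretches of Acot9 occur in Acot10 and none of those of Acot7, Acot8, Acot11 and Acot13 occur elsewhere in the transcripts. How reads with several matches were counted is not given in the sources used here. The values of Acot1, Acot2, Acot3 and Acot5 carry that uncertainty.

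After 6 h at 5 °C, 7 of the 10 genes were higher in mice labelled WT, 1 was lower and 2 did not pass the test. The same division held in mice labelled Afadin KO: Acot1, Acot2, Acot3, Acot4, Acot5, Acot8 and Acot9 rose, Acot13 fell, and Acot7 and Acot11 were not called, in each label. The background is high, because 31.6% of all tested genes were called higher and 33.4% lower in mice labelled WT, and 33.7% and 34.9% in mice labelled Afadin KO. The median log2 fold change of the 10 genes was 1.94 in mice labelled WT, beside -0.01 over all tested genes, and is the same with Acot5 set to the lower bound given below. It was 2.06 in mice labelled Afadin KO, beside -0.03. Acot1, Acot3 and Acot5 passed the filter on low counts only through their values in the cold, so that they had to differ and add no support to these counts and medians. Over the other 7 genes, of which 4 were higher and 1 lower in each label, the median was 0.78 in mice labelled WT and 0.96 in mice labelled Afadin KO. The cold and the warm mice did not overlap in 8 of the 10 genes in each label, the 3 that passed only through the cold among them, beside 46.4% of all tested genes in mice labelled WT and 40.4% in mice labelled Afadin KO. In bulk tissue a change in the number of cells of a type cannot be told apart from a change in RNA per cell.

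**Figure D1:**
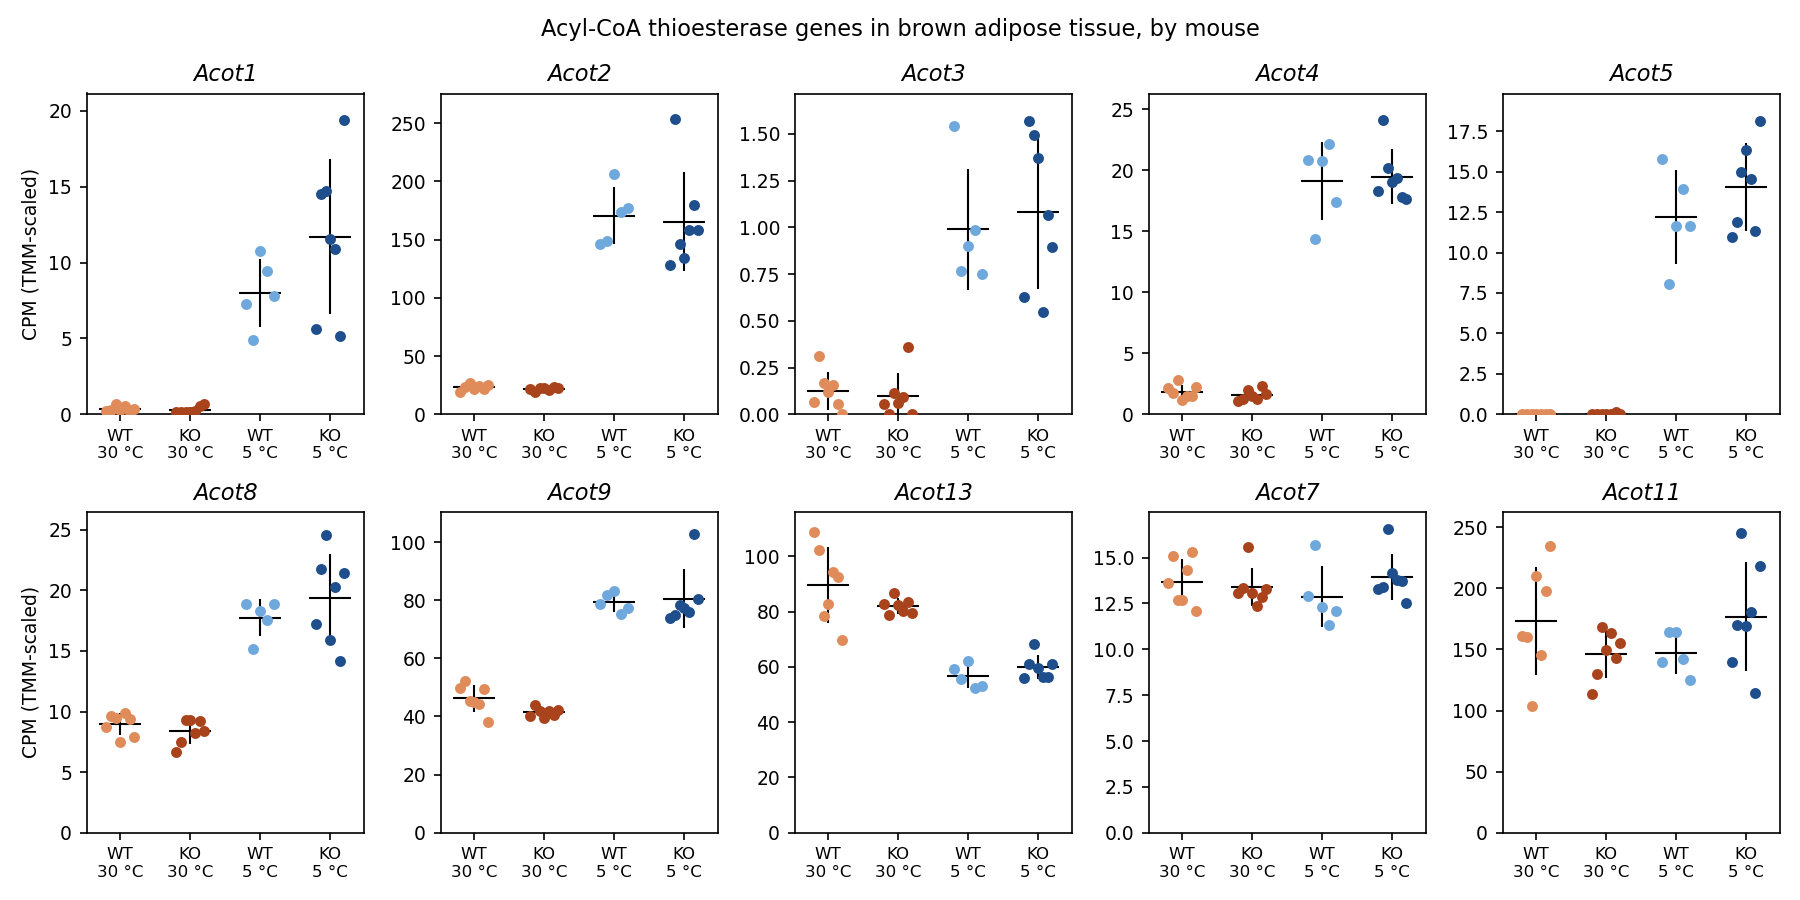
CPM (TMM-scaled counts, linear axes from 0) of the 10 Acot genes in each of the 26 mice. Points are mice, horizontal bars are group means and vertical bars are ± SD (n = 7, 7, 5 and 7); the cold mice lie above the warm mice for Acot1 to Acot5, Acot8 and Acot9, below them for Acot13, and among them for Acot7 and Acot11.

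Acot2, the mitochondrial enzyme, was the most abundant gene of the cluster before and after the cold. WT30 mice ranged from 18.9 to 27.0 CPM (median 23.1) and KO30 mice from 19.5 to 23.8 CPM (median 22.2). The 5 WT5 mice had 146, 149, 206, 173 and 177 CPM, and KO5 mice ranged from 128 to 253 CPM (median 158). Every cold mouse was above every warm mouse. Acot2 rose by a log2 fold change of 2.88 (SE 0.13) in mice labelled WT, with adjusted p = 2.56e-16, edgeR. In mice labelled Afadin KO it rose by 2.92 (SE 0.12), with adjusted p = 5.82e-17, edgeR.

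Acot1, the cytosolic counterpart, was close to the limit of detection in the warm. It had 3 to 12 counts in each WT30 mouse and 2 to 13 in each KO30 mouse, or 0.170 to 0.665 CPM and 0.118 to 0.649 CPM. The WT5 mice had 7.24, 4.88, 10.7, 9.46 and 7.78 CPM, and KO5 mice ranged from 5.17 to 19.4 CPM (median 11.6). The spread of KO5 mice was the wider, and WT5 mice lay within it except for the lowest. The log2 fold change was 4.44 (SE 0.37) in mice labelled WT and 5.33 (SE 0.36) in mice labelled Afadin KO, with adjusted p = 5.2e-11 and 8.24e-13, edgeR. Acot1 passed the filter on low counts only through the cold mice, so these p-values add no support. Because Acot1 shares 359 of its 100-base stretches with the more abundant Acot2, its counts were set beside those of Acot2. Acot1 had a median of 1.40 counts per 100 counts of Acot2 in WT30 mice, 0.785 in KO30 mice, 4.96 in WT5 mice and 6.91 in KO5 mice. The highest KO30 mouse (2.93) lay above the lowest KO5 mouse (2.88), while WT30 mice (up to 2.46) and WT5 mice (from 3.27) did not overlap. The part of shared reads in the counts of Acot1 was not tested.

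Acot4 and Acot3 are peroxisomal enzymes whose genes lie next to each other. Acot4 ranged from 1.15 to 2.77 CPM in WT30 mice (median 1.75) and from 1.07 to 2.32 CPM in KO30 mice (median 1.47). The WT5 mice had 20.9, 14.4, 20.8, 22.1 and 17.4 CPM, and KO5 mice 17.6 to 24.1 CPM (median 19.0). All cold mice were far above all warm mice, and the cold groups overlapped. Acot4 rose by a log2 fold change of 3.36 (SE 0.17) in mice labelled WT and of 3.62 (SE 0.17) in mice labelled Afadin KO (adjusted p = 4.54e-15 and 4.11e-16, edgeR). Acot3 was the rarest member in the cold, with 11 to 26 counts in each WT5 mouse and 9 to 26 in each KO5 mouse. In the warm it had 0 to 5 counts in WT30 mice and 0 to 7 in KO30 mice. Its log2 fold changes were 2.98 (SE 0.49) and 3.38 (SE 0.47), with adjusted p = 7.42e-06 and 4.51e-07, edgeR. Acot3 passed the filter on low counts only through the cold mice, so these p-values add no support. Without KO30 mouse 13, which held 7 of the 13 counts of its group, the value in mice labelled Afadin KO was 4.15.

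An antisense gene, 4732463B04Rik, overlaps exons of Acot4 by 615 bases and of Acot3 by 312 bases. The strand setting of the counting is not given in the sources used here. Its own counts rose in the cold as well, by a log2 fold change of 2.06 (SE 0.26) in mice labelled WT and 2.35 (SE 0.25) in mice labelled Afadin KO. Per 100 counts of Acot4, the antisense gene had a median of 56 counts in WT30 mice and 25.3 in WT5 mice, and 47.1 in KO30 mice and 21.5 in KO5 mice. Whether reads moved between them was not tested.

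Acot5 was the gene with the sharpest contrast between warm and cold. It had 0 counts in all 7 WT30 mice and in 6 of the 7 KO30 mice, with 3 counts in KO30 mouse 13. In the cold it had 266, 116, 271, 268 and 202 counts in the WT5 mice, and 157 to 304 counts in the KO5 mice. In CPM, WT5 mice ranged from 8.08 to 15.8 (median 11.6) and KO5 mice from 11.0 to 18.2 (median 14.6). Against a floor of 3 counts over the whole WT30 group, which allows for no error in the cold counts, Acot5 was at least 487-fold higher in WT5 mice (1123 counts in all). With the counting error of both groups, the exact 95% lower limit of the ratio was 395. In mice labelled Afadin KO the ratio was 624, with a 95% exact interval of 213 to 3031 from 1573 against 3 counts. All 3 of those counts came from KO30 mouse 13. Without that mouse the KO30 group was at 0, Acot5 was at least 534-fold higher over the same floor, and the exact 95% lower limit was 434. These limits cover counting error only. The test called Acot5 higher in both labels (adjusted p = 5.05e-14 and 1.67e-14, edgeR). Acot5 passed the filter on low counts only through the cold mice, so it had to differ and these p-values add no support. Its shared stretches are with Acot3, Acot1, Acot6 and Acot4. While Acot5 had none, the WT30 mice had 0 to 5 counts of Acot3, 3 to 12 of Acot1, 56 to 99 of Acot6 and 19 to 50 of Acot4. Of the stretches of Acot5, 6.86% occur in Acot3, 4.82% in Acot1, 3.96% in Acot6 and 0.858% in Acot4. The part of shared reads in the counts of Acot5 was not tested.

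**Figure D2:**
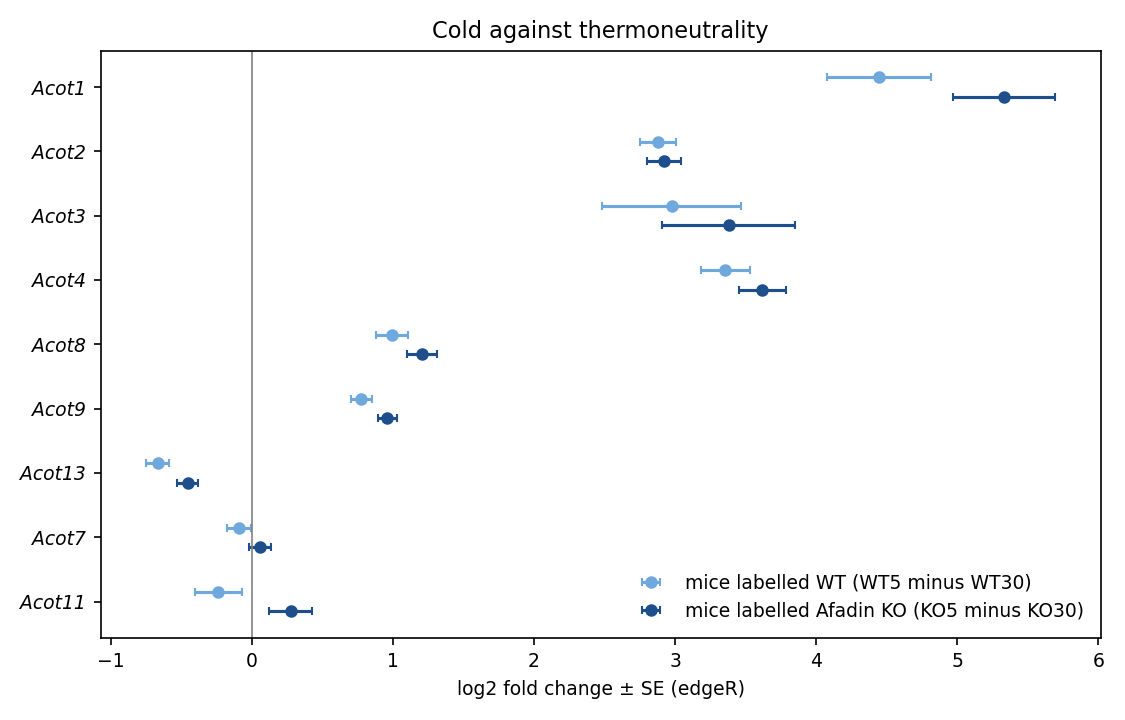
Log2 fold changes of cold against thermoneutrality (5 °C minus 30 °C) from edgeR for 9 of the Acot genes, with bars of ± SE, in mice labelled WT and mice labelled Afadin KO. Acot5 is left out because it had no counts in WT30 mice; Acot1 has the largest values drawn (4.44 and 5.33), and Acot13 is the only gene called lower, at -0.67 and -0.45.

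The cluster did not stop at these 5 genes. Acot6, the last gene of the row, rose by a log2 fold change of 1.20 (SE 0.13) in mice labelled WT and 1.58 (SE 0.12) in mice labelled Afadin KO, the smallest change of the 6. Of the 4 other genes tested within 100 kb of the cluster, 2 were called higher in mice labelled WT. These were the antisense gene and Riox1, which ends at -34.9 kb counted from the start of Acot2 and rose by 0.66 (SE 0.15). Riox1 encodes a histone demethylase and ribosomal oxygenase. Dnal1, a dynein light chain gene on the other side, changed by 0.02 on the log2 scale (SE 0.12, adjusted p = 0.918, edgeR) in mice labelled WT. Its value in mice labelled Afadin KO was -0.25 (SE 0.11, adjusted p = 0.0445, edgeR). Pnma1 was not called in either label (adjusted p = 0.358 and 0.202, edgeR). Dnal1 and Pnma1 thus did not share the rise of the genes beside them.

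**Figure D3:**
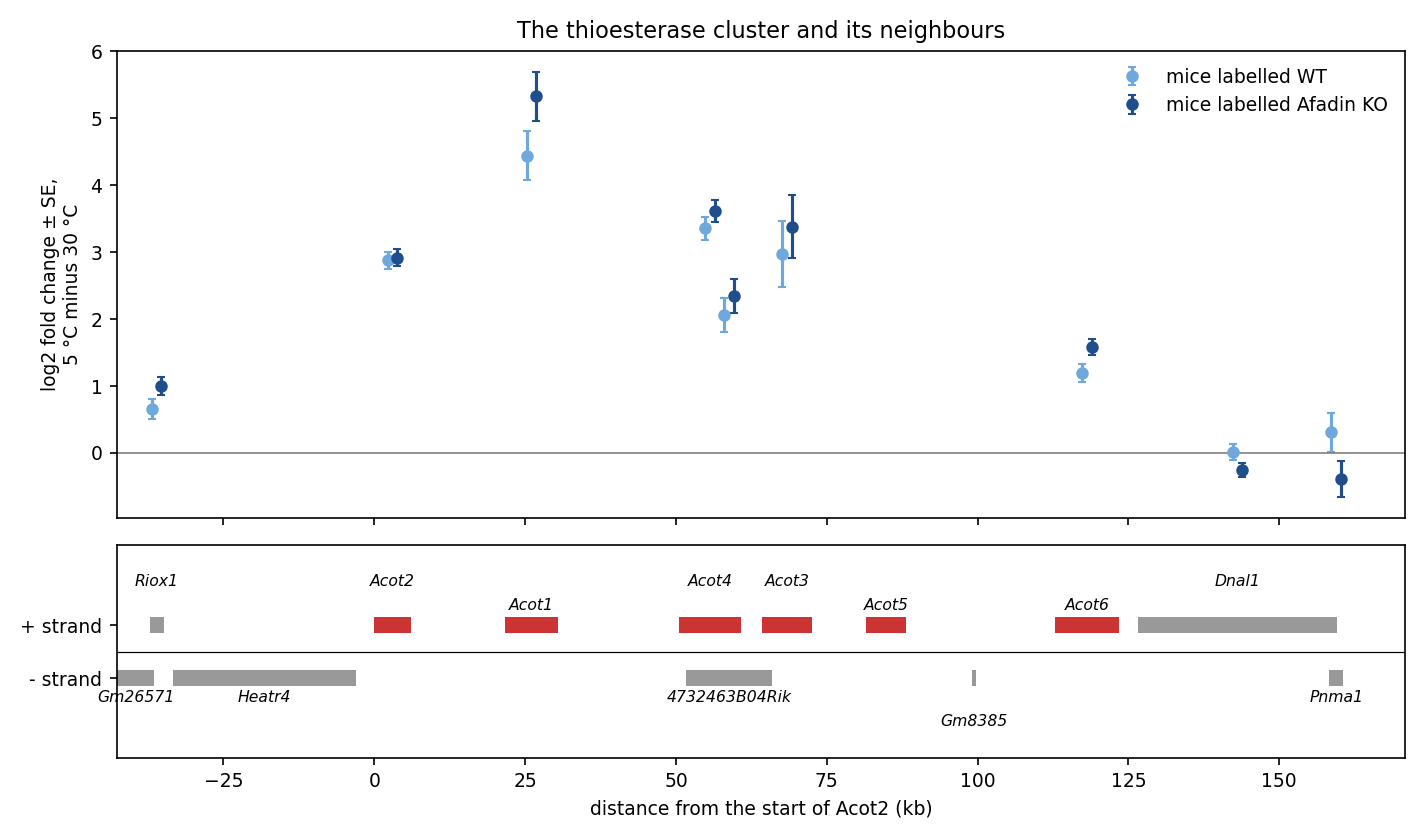
Upper panel: log2 fold change ± SE of cold against thermoneutrality for the tested genes of the cluster region in both labels, placed by the middle of each gene; lower panel: the genes on each strand, in kb from the start of Acot2. The Acot genes (red) lie between 1.20 and 5.33 and the genes to the right of Acot6 between -0.39 and 0.31; Acot5 is drawn on the map only, since it had no counts in WT30 mice.

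Among the type II genes, Acot8 and Acot9 rose and Acot13 fell. Acot8, the peroxisomal enzyme, ranged from 7.49 to 9.89 CPM in WT30 mice (median 9.42) and from 6.67 to 9.32 CPM in KO30 mice (median 8.39). The WT5 mice had 18.9, 15.2, 18.3, 17.6 and 18.9 CPM and KO5 mice 14.2 to 24.6 CPM (median 20.3). Cold and warm mice did not overlap, with log2 fold changes of 0.99 (SE 0.11) and 1.21 (SE 0.11) and adjusted p = 1.89e-08 and 1.1e-10, edgeR. Its exons overlap those of Snx21 on the other strand by 246 bases, and Snx21 did not pass the test in the cold (log2 fold change -0.01 in mice labelled WT and 0.16 in mice labelled Afadin KO).

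Acot9, a mitochondrial enzyme, ranged from 38.1 to 52.2 CPM in WT30 mice (median 45.2) and from 39.6 to 43.9 CPM in KO30 mice (median 41.8). The WT5 mice had 78.7, 81.9, 83.0, 75.3 and 77.4 CPM, and KO5 mice 74.0 to 103 CPM (median 77.2). The cold mice stood close together apart from the highest KO5 mouse. The log2 fold changes were 0.78 (SE 0.07) and 0.96 (SE 0.07), with adjusted p = 5.12e-10 and 1.63e-12, edgeR.

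Acot13, the other mitochondrial enzyme of this class, went the opposite way. It ranged from 69.6 to 109 CPM in WT30 mice (median 92.4) and from 78.9 to 86.9 CPM in KO30 mice (median 82.3). The WT5 mice had 59.3, 55.7, 62.0, 52.5 and 53.2 CPM, and KO5 mice 56.0 to 68.4 CPM (median 59.5). Every cold mouse was below every warm mouse of its label. Acot13 fell by 0.67 on the log2 scale (SE 0.08) in mice labelled WT and by 0.45 (SE 0.07) in mice labelled Afadin KO, with adjusted p = 6.99e-08 and 5.03e-06, edgeR.

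Acot7 and Acot11 did not pass the test for cold in either label. Acot7 had group means of 13.7 ± 1.27, 13.4 ± 1.03, 12.9 ± 1.67 and 13.9 ± 1.26 CPM (SD) in WT30, KO30, WT5 and KO5 mice. Its log2 fold change was -0.09 (SE 0.08, adjusted p = 0.359, edgeR) in mice labelled WT and 0.06 (SE 0.08, adjusted p = 0.506, edgeR) in mice labelled Afadin KO. Its direction depended on the scaling: with library size alone the 2 values were -0.21 and -0.26, both called lower, while the median of all genes was then -0.14 and -0.34. Acot11, the gene named for its induction in brown fat, ranged from 104.0 to 235 CPM in WT30 mice (median 161) and from 113 to 169 CPM in KO30 mice (median 150). The WT5 mice had 139, 164, 164, 142 and 125 CPM and KO5 mice 114 to 245 CPM (median 170). All 4 groups overlapped. The log2 fold change was -0.24 (SE 0.17, adjusted p = 0.216, edgeR) in mice labelled WT and 0.27 (SE 0.15, adjusted p = 0.110, edgeR) in mice labelled Afadin KO. Without KO5 mouse 27 the latter was 0.36 and past the threshold (adjusted p = 0.0315, edgeR). With library size alone it was -0.05. Exons of Fam151a lie opposite those of Acot11 over 1263 bases, and Fam151a had at most 16 counts in any mouse. Whether this overlap changed the counts of Acot11 was not tested.

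To compare genes with each other, CPM was divided by the length of all annotated exons of a gene. In WT30 mice Acot13 had the highest level, 120.6 ± 18.4 CPM per kb (SD, n = 7), and it was first in all 7 WT30 and all 7 KO30 mice. Acot11 followed with 28.6 ± 7.27 CPM per kb, then Acot9 (20.4 ± 2.06), Acot2 (10.5 ± 1.21), Acot7 (6.44 ± 0.598) and Acot8 (4.48 ± 0.457). The last places in the warm were held by Acot4 (0.277 ± 0.0828), Acot1 (0.0930 ± 0.0460), Acot3 (0.0363 ± 0.0295) and Acot5 (0). Across WT30 mice Acot11 overlapped with Acot9 and Acot1 with Acot3, and Acot3 shared the value 0 with Acot5 in 1 mouse. The other neighbours in this order did not overlap.

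In the cold the order changed at the top. Acot2 reached 77.6 ± 11.2 CPM per kb in WT5 mice (SD, n = 5) and Acot13 had 76.0 ± 5.40, so that these did not differ beyond their spread. Acot2 was first in 3 of the 5 WT5 mice, and Acot13 in 5 of the 7 KO5 mice. With the length reduced by the share of stretches found in other genes, Acot2 was first in all 5 WT5 mice and in 4 of the 7 KO5 mice. The counts were not reduced with the length. This order therefore holds only if reads with several matches were left out of the counts, which is not given. Acot9 (34.9 ± 1.40) and Acot11 (24.3 ± 2.83) came next in WT5 mice. Acot8 (8.89 ± 0.769), Acot5 (8.04 ± 1.90) and Acot7 (6.06 ± 0.786) followed, and Acot5 overlapped with both of the others. Acot4 (2.86 ± 0.477) overlapped with Acot1 (2.05 ± 0.570), and Acot3 (0.288 ± 0.0943) was last.

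Summed over the 10 genes, the level was 191 ± 18.6 CPM per kb in WT30 mice and 241 ± 16.2 in WT5 mice, and 173 ± 6.38 in KO30 mice and 252 ± 24.9 in KO5 mice (SD). The 5 members of the cluster made up 5.81% ± 1.21 of this sum in WT30 mice and 37.6% ± 3.16 in WT5 mice. In mice labelled Afadin KO their share was 5.95% ± 0.374 at 30 °C and 35.8% ± 4.64 at 5 °C. Most of this share was Acot2, which alone had 32.1% of the sum in WT5 mice.

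**Figure D4:**
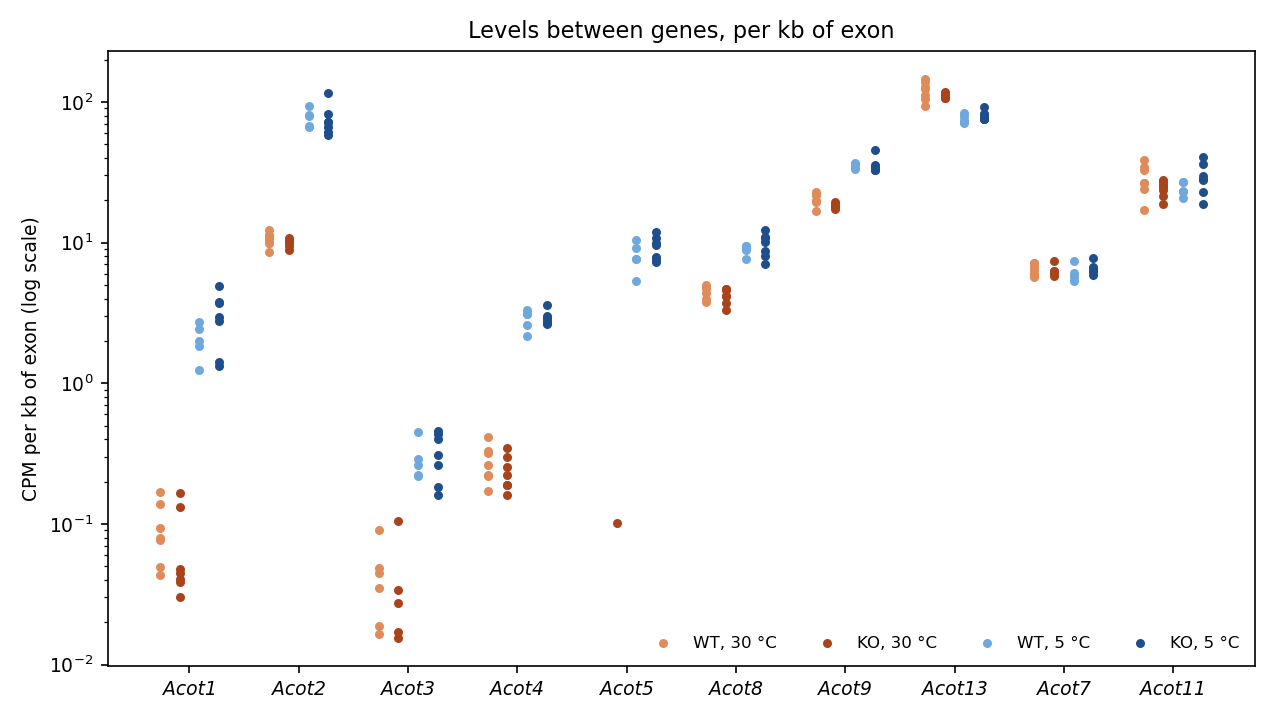
CPM per kb of exon (log axis) of the 10 Acot genes, each point a mouse, coloured by group. Acot13 is highest in the warm at 120.6 CPM per kb in WT30 mice on average, and Acot2 reaches its level in the cold; mice with 0 counts of Acot3 or Acot5 cannot be drawn on a log axis.

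Between the labels, none of the 10 genes was called, whether at 30 °C, at 5 °C or in the difference of the cold responses. Few genes were called in these comparisons at all: 0.081% of tested genes at 30 °C, 0.139% at 5 °C and 1.16% for the difference. The smallest adjusted p among the 10 genes was 0.578 at 30 °C, 0.424 at 5 °C and 0.258 for the difference of the responses (edgeR). At an unadjusted p below 0.05, 1, 0 and 1 of the 10 passed, beside 7.65%, 13.4% and 16.2% of all tested genes. With DESeq2's Wald test none of the 10 was called either. No member separated the labels without overlap at either temperature, beside 0.249% of tested genes at 30 °C and 1.11% at 5 °C.

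At 30 °C the lowest p belonged to Acot9, which had 46.3 ± 4.68 CPM in WT30 mice and 41.4 ± 1.47 CPM in KO30 mice (SD), a log2 difference of -0.16 (SE 0.07, adjusted p = 0.578, edgeR). At 5 °C Acot1 had the largest difference, 8.02 ± 2.23 CPM in WT5 mice and 11.7 ± 5.11 CPM in KO5 mice, a log2 difference of 0.54 (SE 0.29, adjusted p = 0.424, edgeR). For Acot2 the difference at 5 °C was -0.04 (SE 0.12) and for Acot4 0.03 (SE 0.15). In the difference of the cold responses, Acot11 had the lowest p, with a value of 0.51 (SE 0.23, adjusted p = 0.258, edgeR). Acot3 and Acot5 had too few counts in the warm for a value at 30 °C to be read. Acot1 had 2 to 13 counts in each KO30 mouse and 3 to 12 in each WT30 mouse, and its value at 30 °C was -0.35 (SE 0.48). That these 3 genes were not called at 30 °C or in the difference of the responses therefore says little.

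The summed level of 6 RNAs that stay in the nucleus, among them Malat1 and Neat1, was read beside these values. It ran from 8967 to 10589 CPM in WT30 mice and from 10440 to 11798 CPM in KO30 mice, and from 14845 to 16276 CPM in WT5 mice and from 10345 to 13583 CPM in KO5 mice. All 6 were tested. Between the labels none was called at 30 °C and 1 was called lower at 5 °C. In the cold, 3 were called higher and 2 lower in mice labelled WT, and 2 and 3 in mice labelled Afadin KO. Of all tested genes, 31.6% were then higher and 33.4% lower in mice labelled WT, and 33.7% and 34.9% in mice labelled Afadin KO. None of these RNAs was at 0 throughout a group. Their part in the values of the Acot genes was not tested.

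**Figure D5:**
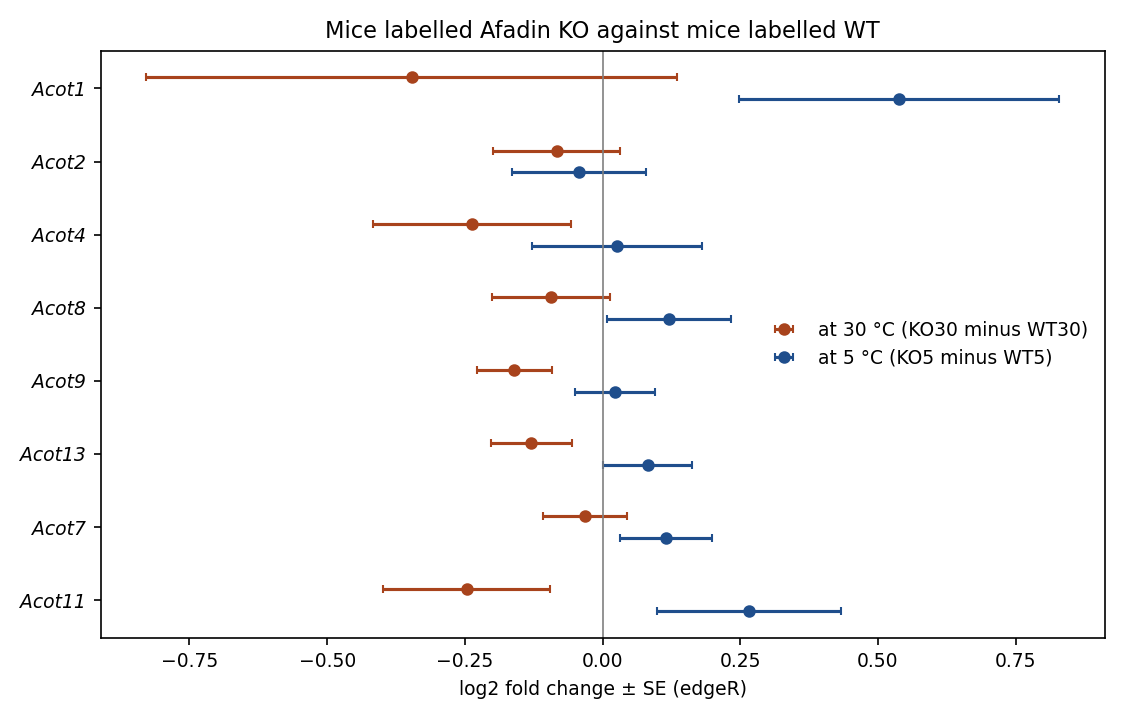
Log2 fold changes of mice labelled Afadin KO against mice labelled WT from edgeR for 8 of the Acot genes, with bars of ± SE, at 30 °C and at 5 °C. None of the values was called. Acot1 at 5 °C lies at 0.54, and its value at 30 °C rests on 2 to 13 counts in each warm mouse. Acot3 and Acot5 are left out because of their few counts in the warm.

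Markers of other cells were read in the same mice. Their calls in the cold stand beside those of all tested genes. Of these, 31.6% were higher and 33.4% lower in mice labelled WT, and 33.7% and 34.9% in mice labelled Afadin KO. The summed level of 12 skeletal muscle markers, all of them tested and none called, varied within groups from 51.5 to 6364 CPM in WT30 mice, 48.8 to 1793 in KO30, 31.5 to 5680 in WT5 and 29.2 to 8867 in KO5 mice, with none of the 12 at 0. The 7 white adipocyte markers found (of 8 listed) had sums of 290 to 517 CPM in WT30 mice, 291 to 439 in KO30, 70.3 to 92.9 in WT5 and 69.2 to 147 in KO5 mice. Of the 5 tested, 1 was lower in the cold in mice labelled WT, and 2 were higher and 2 lower in mice labelled Afadin KO. Tcf21 was at 0 in the warm groups and in KO5 mice, and Hoxc9 in KO5 mice. Of the 6 red blood cell markers, all were called higher in the cold in mice labelled Afadin KO and none in mice labelled WT. Their sums were 233 to 1123 CPM in WT30 mice, 290 to 610 in KO30, 417 to 685 in WT5 and 518 to 1500 in KO5 mice, with none at 0. The 8 lymphocyte markers had low sums, 4.71 to 11.8 CPM in WT30 mice, 5.17 to 11.0 in KO30, 1.48 to 3.11 in WT5 and 1.97 to 23.7 in KO5 mice, and 4 of them were lower in the cold in mice labelled WT and 2 in mice labelled Afadin KO. The 8 endothelial markers had sums of 602 to 743 CPM in WT30 mice, 685 to 862 in KO30, 874 to 992 in WT5 and 746 to 998 in KO5 mice. Of these, 4 were higher and 4 lower in mice labelled WT, and 3 and 3 in mice labelled Afadin KO. The 8 macrophage markers had sums of 200 to 289 CPM in WT30 mice, 195 to 245 in KO30, 230 to 295 in WT5 and 245 to 350 in KO5 mice, with 3 higher and 3 lower in mice labelled WT and 5 and 2 in mice labelled Afadin KO. None of the lymphocyte, endothelial and macrophage markers was at 0 throughout a group. Of 8 hepatocyte markers only 2 passed the filter, 1 of them higher in mice labelled Afadin KO, and Fgb was at 0 in every group. The hepatocyte sums were 35.9 to 264 CPM in WT30 mice, 39.6 to 233 in KO30, 113 to 279 in WT5 and 73.0 to 349 in KO5 mice. The part of these cells in the changes of the Acot genes was not tested.

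The other genes that make, use or bind acyl-CoA were called in both directions in the cold, as were genes at large. Over all tested genes, 31.6% were higher and 33.4% lower in mice labelled WT, with a median log2 fold change of -0.01. In mice labelled Afadin KO 33.7% were higher and 34.9% lower, with a median of -0.03. The counts and medians of each list below stand beside these values. Of the 13 other thioesterase genes tested, 6 were higher and 6 lower in the cold in mice labelled WT, and 7 and 6 in mice labelled Afadin KO (4 and 6 with library size alone). Them4, a mitochondrial thioesterase of the hot-dog fold, rose by a log2 fold change of 1.80 (SE 0.09) in mice labelled WT. Fasn, the fatty acid synthase whose last domain is a thioesterase, fell by 2.69 on the log2 scale (SE 0.35) in mice labelled WT, and Them6 by 2.03 (SE 0.29). Them6 passed the filter on low counts only through the warm mice, so its fall adds no support. It had 217 counts over the 7 WT30 mice and 40 over the 5 WT5 mice. Acot12 is a cytosolic acetyl-CoA thioesterase known from liver, and it rose by 2.51 (SE 0.56) from 13 counts over the 7 WT30 mice to 59 over the 5 WT5 mice. It passed the filter only through the cold mice. Acot10 was too low to be tested.

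Among 16 acyl-CoA synthetases tested, which catalyse the reverse step, 5 were higher and 7 lower in mice labelled WT, with a median log2 fold change of -0.16, and 8 were higher and 5 lower in mice labelled Afadin KO (4 and 7 with library size alone). Acsl1, the main long-chain synthetase of fat tissue, rose from 1461 ± 299 to 5931 ± 980 CPM (SD) in mice labelled WT, a log2 fold change of 2.02 (SE 0.15). Slc27a2, a very-long-chain synthetase and fatty acid transporter, rose by 2.08 (SE 0.15). Acss2, which activates acetate, fell by 1.63 on the log2 scale (SE 0.20), and Acsm5, a medium-chain synthetase, by 1.36 (SE 0.20).

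The enzymes that make and break down coenzyme A were more often lower. Of 17 tested, 3 were higher and 11 lower in mice labelled WT (4 and 9 in mice labelled Afadin KO), with a median log2 fold change of -0.59. Pank1, the pantothenate kinase that starts coenzyme A synthesis, was among those that rose (0.66, SE 0.14), as was Ppcs, the enzyme of the next step (1.07, SE 0.11). Slc5a6, the vitamin transporter that brings in pantothenate, fell by 1.58 on the log2 scale (SE 0.13), and Enpp3 by 1.77 (SE 0.20).

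Of 16 genes for acyl-CoA binding and the carnitine shuttle, 9 were higher and 4 lower in mice labelled WT (7 and 4 with library size alone), and 9 and 2 in mice labelled Afadin KO (5 and 3 with library size alone). Slc25a20, the carnitine-acylcarnitine carrier of the inner mitochondrial membrane, rose by 1.26 (SE 0.10) and Fabp3, a fatty acid binding protein, by 1.41 (SE 0.17). Crot, the peroxisomal carnitine octanoyltransferase, fell by 2.07 on the log2 scale (SE 0.11), and Acbd4, an acyl-CoA binding protein, by 1.27 (SE 0.13). Of 28 genes for fatty acid oxidation, 8 were higher and 9 lower in mice labelled WT (5 and 10 with library size alone). In mice labelled Afadin KO 14 were higher and 6 lower, a balance that turned to 7 and 10 with library size alone. Ehhadh, a peroxisomal enzyme, rose by 3.91 (SE 0.35) in mice labelled WT, and Abcd2, a peroxisomal acyl-CoA transporter, fell by 2.18 on the log2 scale (SE 0.22).

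Of 25 tested genes listed as PPARα, its coactivators and known targets, 15 were higher and 4 lower in mice labelled WT (14 and 5 with library size alone), and 15 and 3 in mice labelled Afadin KO (14 and 6 with library size alone). The median log2 fold change was 0.59 and 0.78. Fgf21, a hormone, and Cyp4a14, a fatty acid hydroxylase, were called higher but passed the filter on low counts only through the cold mice. In mice labelled WT, Fgf21 had 46 counts over the 7 WT30 mice and 1303 over the 5 WT5 mice, and Cyp4a14 had 4 and 222. Vnn1, which cleaves pantetheine, and Nr1d1, a clock gene, fell by 1.42 (SE 0.30) and 1.32 (SE 0.21) on the log2 scale. No gene of these lists was called between the labels. Of all tested genes, 0.081% were called at 30 °C, 0.139% at 5 °C and 1.16% for the difference of the cold responses.

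The pattern of each Acot gene over the 26 mice was set beside those of 14237 genes by Pearson's r of log2 CPM, as a description. The 26 points share the 4 groups, so that r mostly reflects the step between warm and cold. Acot2 and Acot4 were both most like Slc3a2, an amino acid transporter subunit (r = 0.993 and 0.991). Acot1 was most like Slc25a34, a mitochondrial carrier (r = 0.988), Acot5 like Cars2, the mitochondrial cysteinyl-tRNA synthetase (r = 0.995), and Acot3 like Dbt, a subunit of the branched-chain ketoacid dehydrogenase (r = 0.946). For Acot8 it was Brap (r = 0.971), for Acot9 Strap (r = 0.983) and for Acot13 Mtg1, a mitochondrial GTPase (r = 0.981). Acot11 was most like Marc1 (r = 0.789), and Acot7 had no close match, with Trim44 nearest (r = 0.620).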

How the data were processed

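BAT RNA from 26 mice was sequenced from rRNA-depleted, stranded total RNA libraries as 100-base single reads. Alignment to mm10 was done by the authors with STAR 2.5.2b, and reads were assigned to GENCODE M13 genes with featureCounts 1.5.2. The deposited values are raw counts per gene. The 10 genes and all lists were chosen with earlier results of these data known.

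Groups were taken from the labels. Of 50686 genes, 50376 had a symbol in GENCODE M21, which also gave exon lengths, overlaps and transcripts. edgeR 4.0.16 (R 4.3.3) was used in legacy quasi-likelihood mode with filterByExpr by group, TMM factors and a term per group, as the authors describe for edgeR 3.22.0. P-values were adjusted by Benjamini-Hochberg over 17286 genes (threshold 0.05). Cold was compared within each label, the labels at 30 °C and at 5 °C, and the cold response between labels as an interaction. Log2 CPM used a prior count of 2. Other genes were named by rule: in each list the 2 largest rises and the 2 largest falls called in mice labelled WT, at a mean of at least 1 CPM. Some genes that this rule names are not reported here. Neighbouring and overlapping genes were named for their position, a choice made after the values were seen.

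Shared stretches were sought as 100-base windows in 141767 transcripts, since no genome was used here. Promoter windows are from RefSeq. The smallest difference between mice of a group (73 pairs) was a chi-square of 4.83 per gene, above sampling noise. The fits were tested on simulated data. Alternatives were DESeq2 1.42.0, other scalings and filters, only the groups compared, and leaving out each mouse. Total counts of 12705969 to 25732258 make 3 counts, the floor used for Acot5, a value of 0.0253 CPM over WT30 mice.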

Additional observations from a re-analysis of the deposited data

Results flagged for a closer look

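In 59 groups of 5 or 7 values (the named Acot genes, Afdn and checks, each group of mice apart), 10 had a mouse whose gap to its nearest neighbour was large for the range of its group by Dixon's test. Chance flags about 1 in 20 groups. KO5 mouse 23 stood above its group for Acot2 (253 CPM) and Acot4 (24.1 CPM), neighbours in the cluster. KO30 mouse 13 was the highest of its group for Acot3 (0.362 CPM, 7 counts) and for Acot5 (0.155 CPM, 3 counts), and it was the only warm mouse with counts of Acot5. KO5 mouse 24 stood out for Acot7 (16.5 CPM) and Acot13 (68.4 CPM), and KO5 mouse 27 for Acot9 (103 CPM). KO30 mouse 10 had 15.6 CPM of Acot7, WT5 mouse 17 had 1.11 CPM of Acot12, and WT30 mouse 7 had 151 CPM of Afdn. The TMM factors of KO5 mouse 24 (0.769) and of WT30 mouse 7 (1.29) were near the ends of the range of all mice (0.759 to 1.29). The part of the scaling in these values was not tested.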

How the results depend on the processing

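Every called cold change of a member kept its direction and its call in each of the 26 fits without a mouse and under the other settings in which the gene was tested. The members called higher numbered 7 in mice labelled WT and 7 to 8 in mice labelled Afadin KO when mice were left out. With at least 10 counts in every mouse they numbered 4 and 4, because Acot1, Acot3 and Acot5 were then not tested. With library size alone the median over all genes shifted from -0.01 to -0.14 in mice labelled WT and from -0.03 to -0.34 in mice labelled Afadin KO, and calls over all genes went from 5825 higher and 6035 lower to 3223 and 8384 in the latter. Members lower were then 2 in each label, Acot7 joining Acot13, and also 2 in mice labelled WT with upper-quartile factors. Acot7 had -0.21 and -0.26 with library size alone (adjusted p = 0.0367 and 0.00457, edgeR), and -0.19 and -0.10 with upper-quartile factors (adjusted p = 0.0310 and 0.215, edgeR). In mice labelled Afadin KO it had -0.00495 with at least 10 counts, and Acot11 had -0.049 with library size alone.

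None of the members was called between the labels under any setting, but signs of small differences turned. With library size alone, Acot8, Acot7, Acot2 and Acot13 had 0.049, 0.11, 0.053 and 0.029 at 30 °C, Acot4 and Acot9 had -0.026 and -0.022 at 5 °C, and Acot7, Acot2 and Acot9 had -0.052, -0.13 and -0.020 in the difference of the responses. With upper-quartile factors Acot9 had -0.000236 at 5 °C and Acot2 -0.00573 in the difference. When mice were left out, values at 5 °C ran from -0.18 to 0.036 for Acot2, -0.059 to 0.084 for Acot4 and -0.046 to 0.042 for Acot9. With too few counts in the warm to be read, Acot3 ran from -1.06 to 0.13 at 30 °C and from -3.53e-05 to 1.20 in the difference. Acot2 ran from -0.092 to 0.12 in the difference. The causes were not tested.

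Counts over all genes moved more. Between the labels at 30 °C the 14 genes became 34 with library size alone, 9 with no filter, 48 with DESeq2 and 7 to 93 without a mouse. At 5 °C the 24 became 5, 15, 197 and 7 to 100, and also 45 with at least 10 counts and 9 with only the groups compared. The 200 of the difference became 27 with no filter, 488 with DESeq2 and 49 to 371 without a mouse. Without a mouse, the cold counts ran from 10876 to 11376 in mice labelled WT and from 11505 to 12057 in mice labelled Afadin KO. Under the other settings they ran from 9013 to 11855 and from 9332 to 13091. No paired analysis was possible because the groups share no replicate numbers. Length without shared stretches, chosen after seeing the data, gave Acot2 12.7, 12.0 and 93.6 CPM per kb in WT30, KO30 and WT5 mice. These values are too high if reads with several matches were counted. Windows in the genome were not searched. Depth limits Acot3 and Acot5 in the warm.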
